A study of Mus musculus with 12 samples.

Results

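The synaptic vesicle and its release machinery were described by 39 genes in ventral CA1 of the mouse hippocampus, out of 55471 genes in the deposited count table. The genes were taken from a list of presynaptic symbols, chosen with earlier results of these data known, and matched through their Ensembl IDs. All 39 were found, and all 39 were among the 19492 genes that passed the filter on low counts. They fall into 16 vesicle proteins, 10 SNAREs and their regulators, and 13 proteins of the active zone.

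Neurotransmitter is stored in synaptic vesicles by vesicular transporters, and vesicles fuse with the plasma membrane when the SNARE proteins VAMP2, SNAP25 and syntaxin 1 zip together. Synaptotagmins sense the calcium that triggers fusion, complexins clamp and support it, and NSF with its SNAP adaptors takes used SNARE complexes apart. The active zone is the protein scaffold that docks and primes vesicles beside calcium channels. In the hippocampus, changes in release contribute to several forms of plasticity at excitatory synapses. The mRNA of a presynaptic protein is made mainly in the cell body, so a CA1 sample holds mainly the transcripts of CA1 neurons and local interneurons rather than those of the CA3 cells whose axons were stimulated.

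The mice were male, wild-type and of the C57BL/6J strain, at an age of 5 to 7 weeks, and their acute horizontal slices of 400 µm rested for at least 3 h before recording. Slices were frozen 30 min after the end of stimulation, 1 mm2 of ventral CA1 at the electrodes was cut out, and 6 slices made up each of the 12 poly(A) RNA libraries. The series design asks how expression differs after late long-term potentiation, alone or together with activation of the basolateral amygdala. A mouse contributed 4 slices, 1 to each group, and which libraries hold slices of the same mice is not stated.

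The 4 groups held 3 libraries each. In Control, slices carried electrodes and basal stimulation was all they were given. In STET, late potentiation was induced by 3 trains, each of 100 pulses delivered at 100 Hz. In STET_S100 the same trains were combined with 100 pulses at 100 Hz to the basolateral amygdala. In STET_S200 they were combined with amygdala stimulation that the description gives as 200 Hz and then, in brackets, as 100 pulses at 100 Hz, so the rate is stated in conflicting ways. P-values measure the spread between these pooled samples.

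Promoter sequence is shown for 6 of the genes, because the series concerns the transcription that follows stimulation, and 3 short motifs of activity-regulated factors could be looked for in it. The tables used held a RefSeq promoter for 33 of the 39 genes, 43 promoters in all, with coordinates of GRCm38.p6. In the 250 bases before the start site, on either strand, the cyclic AMP response element TGACGTCA lay in 1 of these 43 promoters (2.33%) and in 1.55% of all 32851 promoters. The EGR motif GCGGGGGCG lay in 3 (6.98%, against 2.57% of all), and the AP-1 motif TGAGTCA, in 2, those of Erc2 and Syt2 (4.65%, against 4.46% of all). None of the 3 motifs contains another, and a match describes the letters only. The following stretches of 90 bases run 5′ to 3′ on the strand of the gene, with the motif in capitals.
Syn1 (chrX:20921029-20921118, strand -): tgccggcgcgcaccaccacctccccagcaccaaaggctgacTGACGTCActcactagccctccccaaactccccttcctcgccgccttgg
Syn2 (chr6:115134812-115134901, strand +): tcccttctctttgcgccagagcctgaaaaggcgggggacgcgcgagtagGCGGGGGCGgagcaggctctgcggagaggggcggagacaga
Syngr1 (chr15:80091244-80091333, strand +): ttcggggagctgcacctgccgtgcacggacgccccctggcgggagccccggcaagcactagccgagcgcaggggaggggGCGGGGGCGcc
Stxbp5 (chr10:9901201-9901290, strand -): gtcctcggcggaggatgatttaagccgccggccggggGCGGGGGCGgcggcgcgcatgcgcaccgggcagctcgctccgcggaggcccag
Pclo (chr5:14514828-14514917, strand +): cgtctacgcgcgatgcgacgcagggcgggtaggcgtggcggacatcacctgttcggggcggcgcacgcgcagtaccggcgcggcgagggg
Rimbp2 (chr5:128953487-128953576, strand -): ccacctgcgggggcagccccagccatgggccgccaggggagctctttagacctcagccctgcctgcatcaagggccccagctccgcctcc
Syn1 holds the cyclic AMP response element with its first base 159 bases before the start, and Syn2, Syngr1 and Stxbp5 hold the EGR motif at 41, 11 and 213 bases. Pclo and Rimbp2, for which the stretch just before the start is shown because they are among the genes with the smallest p-values below, hold none of the 3 motifs in their 250 bases.

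Libraries held 36.3 to 52.8 M counted reads, and the 39 genes took 1.643 to 1.779% of them, with 357 to 86825 reads for a gene in a library. As a check of the stimulation, Arc lay between 80.5 and 115 CPM (counts scaled to the library total) in Control. It lay between 170 and 399 CPM in the 9 stimulated libraries. Npas4 lay between 54.7 and 75.3 CPM in Control and between 113 and 326 CPM in the stimulated libraries. Neither gene passed the edgeR test used below in any comparison with Control. The CA1 pyramidal markers Wfs1 (76.0 to 99.2 CPM), Pou3f1 (65.9 to 80.7 CPM), Fibcd1 (290 to 437 CPM) and Spink8 (9.21 to 15.4 CPM) were present in every library. The CA2 and CA3 markers summed to 122 to 152 CPM and those of dentate granule cells to 23.6 to 104 CPM. Interneuron markers summed to 852 to 1015 CPM. The libraries differed in transcripts of other tissues: the choroid plexus transcript Ttr ran from 183 to 1167 CPM in Control, from 254 to 2243 CPM in STET, from 12.2 to 2798 CPM in STET_S100 and from 1.73 to 40.6 CPM in STET_S200. All 5 choroid plexus markers were lower in every STET_S200 library than in any Control or STET library, with median log2 fold changes of −5.10 and −5.38, and summed to 5.60 to 49.8 CPM in STET_S200 against 203 to 1268 CPM in Control and 275 to 2394 CPM in STET. Fabp4, a fatty acid carrier of fat and capillary cells, was over 1 CPM in 5 libraries (Control 3, STET 3, STET_S100 1, STET_S200 2 and STET_S200 3). The part of these tissues in the results below was not tested, and values from the 7 libraries with Fabp4 at or under 1 CPM are given for some of them.

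Most of the release machinery was abundant. Of the 39 genes, 27 stood above the 90th percentile of all tested genes in CPM, and the lowest, Syn3, at percentile 50.5. Levels are compared between genes as CPM per kb of exon, averaged over the 12 libraries. On that scale the complexin gene Cplx2 was highest, at 268 ± 15.1 (SD, n = 12), followed by Syp, which encodes the vesicle membrane protein synaptophysin, at 259 ± 7.91, the SNARE gene Snap25 at 238 ± 9.96, the vesicular glutamate transporter gene Slc17a7 at 234 ± 8.79 and the vesicle SNARE gene Vamp2 at 231 ± 7.64. In this order Cplx2 and Syp, and Snap25, Slc17a7 and Vamp2, lay within the spread of each other. The lowest were Syn3 at 0.881 ± 0.0914, the priming factor gene Unc13b at 2.30 ± 0.192, the vesicle glycoprotein gene Sv2c at 2.59 ± 0.50, Slc17a6 at 2.84 ± 0.808 and the calcium sensor gene Syt2 at 2.93 ± 0.204 CPM per kb. The last 4 of these overlapped with a neighbour in their spread.

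The classes differed in level. The median per kb was 88.8 CPM for the 16 vesicle proteins, 110 CPM for the 10 SNAREs and their regulators and 13.3 CPM for the 13 active zone genes, whose highest member was Bsn, the scaffold bassoon, at 37.0 ± 1.57. Within the SNARE class the lowest was Stxbp5, which encodes tomosyn, a competitor of VAMP2 in SNARE assembly, at 7.91 ± 0.205 CPM per kb. Without division by length it was not the lowest, at 131 CPM against 87.0 for Vamp1 and 87.1 for Stx1a. The divisor is the union of all annotated exons of a gene, not the length of a transcript. It was longer in the active zone, with a median of 10.4 kb against 5.40 kb for vesicle proteins and 5.86 kb for the SNARE class. Its part in the differences of level was not tested. Ratios of related genes in CPM per kb of exon varied little over the 12 libraries in some pairs and widely in others. Vamp2 was 25.2 to 28.8 times Vamp1, Erc2 4.21 to 4.63 times Erc1, Rims1 2.91 to 3.28 times Rims2, and Napb 2.13 to 2.49 times Napa, while Slc17a7 was 48.1 to 163 times Slc17a6, Sv2a 32.4 to 68.5 times Sv2c and Unc13a 5.56 to 10.5 times Unc13c.

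**Figure D1:**
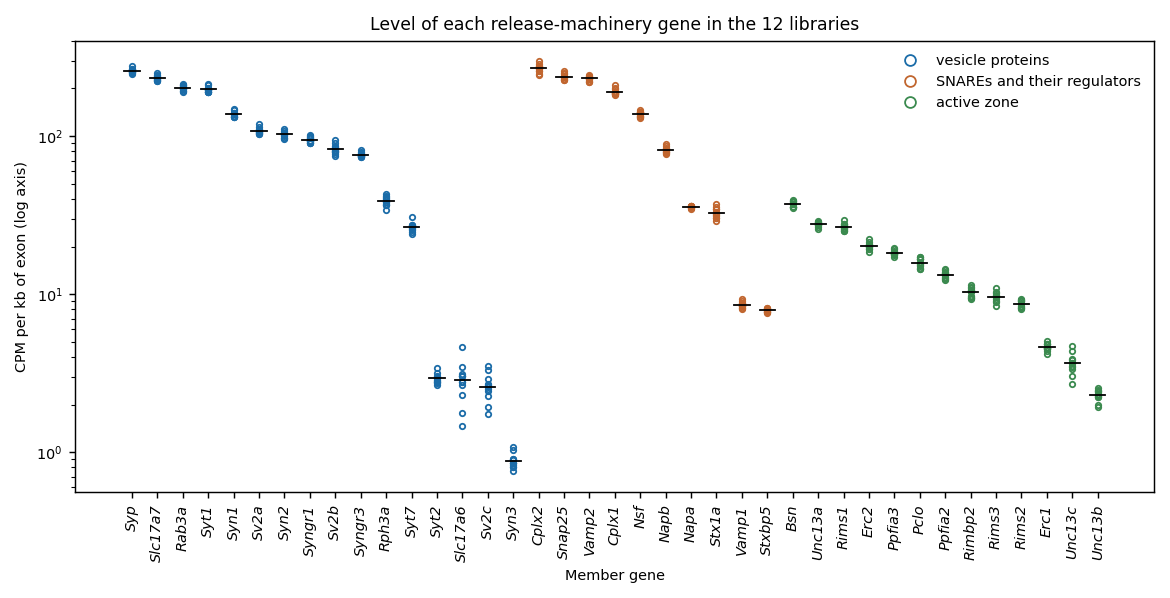
Level of each of the 39 genes in CPM per kb of exon (log axis), 1 point per library and a bar at the mean of the 12 libraries, grouped by class. The vesicle and SNARE classes reach the highest levels, up to 268 for Cplx2, while all active zone genes lie at or below 37.0 for Bsn.

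No gene of the release machinery passed the test in any comparison. With edgeR's quasi-likelihood test and Benjamini-Hochberg adjustment over all 19492 genes (threshold 0.05), 0 of 39 passed in STET against Control, where 0% of all genes passed, and likewise 0 of 39 against 0% in STET_S100 and in STET_S200 against Control, in the 3 comparisons between stimulated groups, in the mean of the 3 stimulated groups against the Control mean and in the test of any difference among the 4 groups. DESeq2 and limma-voom also called 0 of 39 in all 8. In edgeR's test Arc and Npas4 did not pass in the stimulated mean against Control either. Their log2 fold changes there were 1.38 and 1.59, with an adjusted p of 0.845 for both. A gene that did not pass can therefore still have changed. The 3 comparisons with Control share the Control libraries. The fold changes were small, and their intervals narrow for most of these abundant genes. The 95% interval lay within ±0.25 on the log2 scale for 31 of 39 genes in STET, 31 in STET_S100 and 30 in STET_S200, and within ±0.5 for 37, 37 and 36. Over all 19492 genes it lay within ±0.25 for 8687, 8346 and 8332, and within ±0.5 for 12712, 12561 and 12449. In bulk samples, fewer cells of a type and less RNA per cell cannot be told apart.

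Before adjustment, 5 of 39 genes had p under 0.05 in STET against Control, all lower (Syn3, Rph3a, Rimbp2, Pclo and Rims3), while 3.5% of all genes had such a p and 1.53% were lower. There were 3 in STET_S100 (Syn3, Rph3a and Pclo), all lower, against 5.16% of all genes in either direction and 2.57% lower. In STET_S200 there were 5 (Syn3, Syt7, Rph3a, Rimbp2 and Pclo), all lower, against 5.92% in either direction and 2.98% lower. In the mean of the stimulated groups there were 5, again Syn3, Rph3a, Syt7, Rimbp2 and Pclo, all lower, against 5.47% in either direction and 2.88% lower. In the test of any difference among the 4 groups there were 4 (Syn3, Rph3a, Rimbp2 and Pclo) against 4.1% of all genes.

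**Figure D2:**
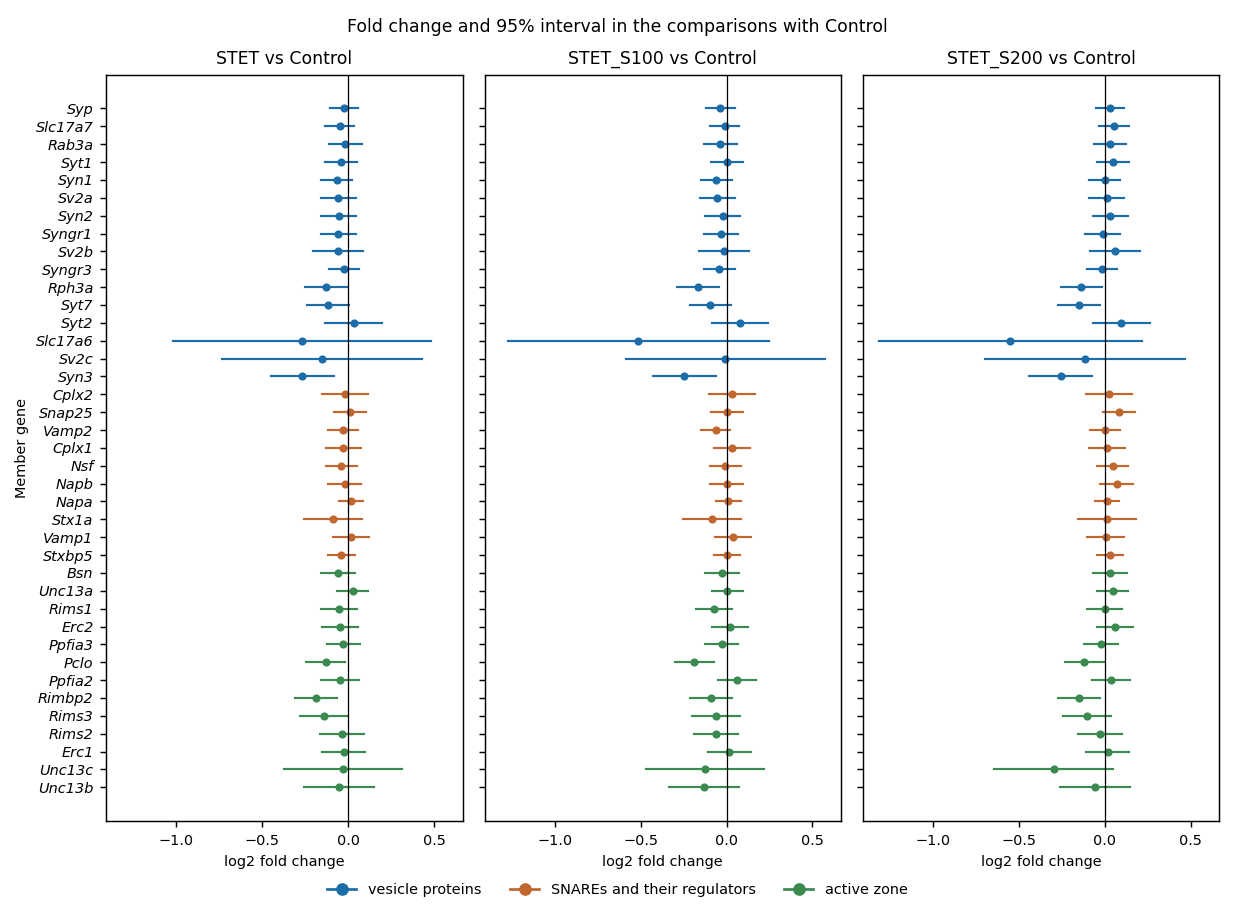
Log2 fold change (point) with its 95% interval (line) for each of the 39 genes in STET, STET_S100 and STET_S200 against Control, coloured by class. Most points lie close to 0, the widest intervals belong to Slc17a6 and Sv2c, and the intervals of Syn3 lie below 0 in all 3 panels.

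Among the vesicle proteins, Syn3 stood apart most. Synapsins tether vesicles to each other and to actin, and synapsin III is the family member best known from developing neurons. Syn3 (ENSMUSG00000059602) was at 12.6, 13.2 and 11.2 CPM in Control and at 11.0, 10.5 and 9.28 CPM in STET. It was at 10.5, 10.2 and 10.5 CPM in STET_S100 and at 9.94, 9.90 and 11.1 CPM in STET_S200. All 9 stimulated libraries lay below all 3 Control libraries, the closest pair being Control 3 and STET_S200 3, and Syn3 was the only 1 of the 39 genes with this pattern, which 0.441% of all genes showed. The group means were 12.3 ± 1.06, 10.3 ± 0.872, 10.4 ± 0.181 and 10.3 ± 0.696 CPM (SD, n = 3 each). The log2 fold change was −0.27 ± 0.09 (SE) in STET, −0.25 ± 0.09 in STET_S100, −0.26 ± 0.09 in STET_S200 and −0.26 ± 0.07 in the mean of the 3, with unadjusted p-values of 0.0071, 0.012, 0.0091 and 0.0020 in edgeR's test and an adjusted p of 0.845 in the last. Without any 1 library, the last value stayed between −0.32 and −0.20. Of the exon bases of Syn3, 14.1% are shared with Timp3, a metalloproteinase inhibitor gene on the opposite strand, and the strand setting of the counting is not given in the sources used here. Timp3 was at 106 to 128 CPM in Control and 106 to 134 CPM in the stimulated libraries, with a log2 fold change of 0.01 in the mean of the stimulated groups.

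Syn1 and Syn2, the abundant synapsins, differed less. Syn1 averaged 467 ± 19.3 CPM in Control and 445 ± 15.3, 447 ± 13.9 and 466 ± 15.9 CPM in the 3 stimulated groups (SD, n = 3), with log2 fold changes of −0.07, −0.06 and 0.00. Syn2 averaged 727 ± 11.5, 700 ± 25.7, 715 ± 55.5 and 743 ± 8.41 CPM in the same order. In CPM per kb of exon, Syn1 was 142 ± 18.5 times Syn3 in Control and 160 to 168 times on average in the stimulated groups.

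Rph3a encodes rabphilin, a partner of the vesicle GTPase Rab3. It was at 201, 194 and 189 CPM in Control, at 187, 178 and 169 CPM in STET, at 169, 174 and 177 CPM in STET_S100 and at 184, 158 and 190 CPM in STET_S200. The STET and STET_S100 libraries lay below all Control libraries, while STET_S200 3 lay just inside the Control range. Its log2 fold changes were −0.13 ± 0.06, −0.17 ± 0.06 and −0.14 ± 0.06 (SE), with 95% intervals of −0.25 to −0.01, −0.29 to −0.05 and −0.26 to −0.02. Without STET_S200 2 the value in STET_S200 was −0.06 (unadjusted p = 0.222, edgeR), and without STET 3 the value in STET was −0.10 (unadjusted p = 0.150, edgeR). The GTPase gene Rab3a itself averaged 450 ± 12.9 CPM in Control and 445 ± 18.4, 439 ± 23.9 and 459 ± 12.8 CPM in the stimulated groups.

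Syt7 encodes a slow, high-affinity calcium sensor of release and facilitation. It was at 232, 201 and 202 CPM in Control, at 205, 195 and 185 CPM in STET, at 198, 206 and 191 CPM in STET_S100 and at 199, 180 and 193 CPM in STET_S200. Control 1 was the highest of the 12 libraries, and the groups overlapped in STET and STET_S100. The log2 fold change in the mean of the stimulated groups was −0.12 ± 0.05 (SE), with an unadjusted p of 0.019 in edgeR's test. Without Control 1 it was −0.05 with an unadjusted p of 0.28. Syt1, the fast calcium sensor of CA1 synapses, averaged 1644 ± 22.7 CPM in Control and 1597 ± 37.2, 1647 ± 104 and 1697 ± 65.8 CPM in the 3 stimulated groups, and Syt2, its counterpart in fast-spiking interneurons and the hindbrain, 21.6 ± 0.927, 22.0 ± 0.476, 22.8 ± 1.38 and 23.1 ± 2.88 CPM.

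The 2 vesicular glutamate transporter genes differed in level and in spread. Slc17a7 (VGLUT1), the main transporter of hippocampal and cortical excitatory neurons, averaged 1261 ± 58.0, 1219 ± 20.4, 1251 ± 29.8 and 1308 ± 40.0 CPM in Control, STET, STET_S100 and STET_S200. Slc17a6 (VGLUT2), used more by thalamic and other subcortical neurons, was at 25.1, 15.1 and 16.9 CPM in Control, at 18.7, 16.4 and 12.5 CPM in STET, at 14.4, 16.3 and 9.57 CPM in STET_S100 and at 14.96, 7.93 and 16.5 CPM in STET_S200. It was the most variable of the 39 genes, with an SD of log2 CPM of 0.43 over the 12 libraries and a 3.16-fold range, and all groups overlapped. Its log2 fold changes of −0.27 ± 0.33, −0.51 ± 0.33 and −0.55 ± 0.33 (SE) had 95% intervals reaching from −1.02, −1.27 and −1.31 to 0.48, 0.24 and 0.21. They rested in part on Control 1: without it the value in STET was −0.01 and that in STET_S100 −0.25, and without STET_S200 2 the value in STET_S200 was −0.28. Slc17a7 was 48.1 to 163 times Slc17a6 in CPM per kb of exon. The summed thalamic markers (Tcf7l2, Prkcd, Lef1, Zic1, Ramp3) ran from 22.0 to 30.8 CPM, a narrower range. Singly they ran from 4.73 to 6.39, 11.5 to 14.7, 1.39 to 2.97, 2.07 to 6.49 and 1.65 to 3.11 CPM in that order. The summed cortical markers (Cux2, Rorb, Fezf2, Tbr1) were lowest in STET_S200 2, at 133 CPM, and highest in Control 1, at 163 CPM. Singly they did not all follow the sum. Fezf2 and Tbr1 were highest in a Control library, at 81.2 and 43.4 CPM. Cux2 was highest in a STET_S100 library, at 24.7 CPM, and Rorb in a STET_S200 library, at 22.4 CPM. The part of these regions in the Slc17a6 values was not tested.

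The genes outside the list whose log2 CPM followed Slc17a6 most closely over the 12 libraries were Cbln2 (Pearson r = 0.97), a secreted synapse organizer, the zinc finger gene Tshz2 (0.94) and Arhgef15 (0.91). These are descriptions over libraries that share their dissection and depth. Cbln2 ran from 7.46 CPM in STET_S200 2 to 15.9 CPM in Control 1, the same libraries that held the lowest and the highest Slc17a6.

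Sv2c, a vesicle glycoprotein gene of which the hippocampus expresses little, was at 33.9, 26.2 and 18.7 CPM in Control, at 23.5, 25.8 and 22.0 CPM in STET, at 25.3, 28.3 and 25.2 CPM in STET_S100 and at 31.9, 24.2 and 16.8 CPM in STET_S200. Control and STET_S200 each spanned nearly the whole range of the 12 libraries. The log2 fold change in the mean of the stimulated groups was −0.09 ± 0.21 (SE), and 0.14 without Control 1. Its relatives Sv2a and Sv2b averaged 510 ± 19.6 and 695 ± 31.5 CPM in Control, and their log2 fold changes lay between −0.06 and 0.06 in the comparisons with Control.

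Syp was the steadiest vesicle gene, with an SD of log2 CPM of 0.044. It averaged 1357 ± 30.5 CPM in Control and 1333 ± 23.6, 1323 ± 43.9 and 1383 ± 52.0 CPM in STET, STET_S100 and STET_S200. Of its exon bases 16.8% are shared with the antisense gene Gm14703, at 27.9 to 41.3 CPM. The synaptogyrin genes Syngr1 and Syngr3, of the same tetraspan family, had log2 fold changes between −0.06 and −0.01 in the comparisons with Control. Over the whole class, the median log2 fold change was −0.06 in STET (15 of 16 negative), −0.04 in STET_S100 (14 of 16 negative) and 0.00 in STET_S200 (8 of 16 negative).

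**Figure D3:**
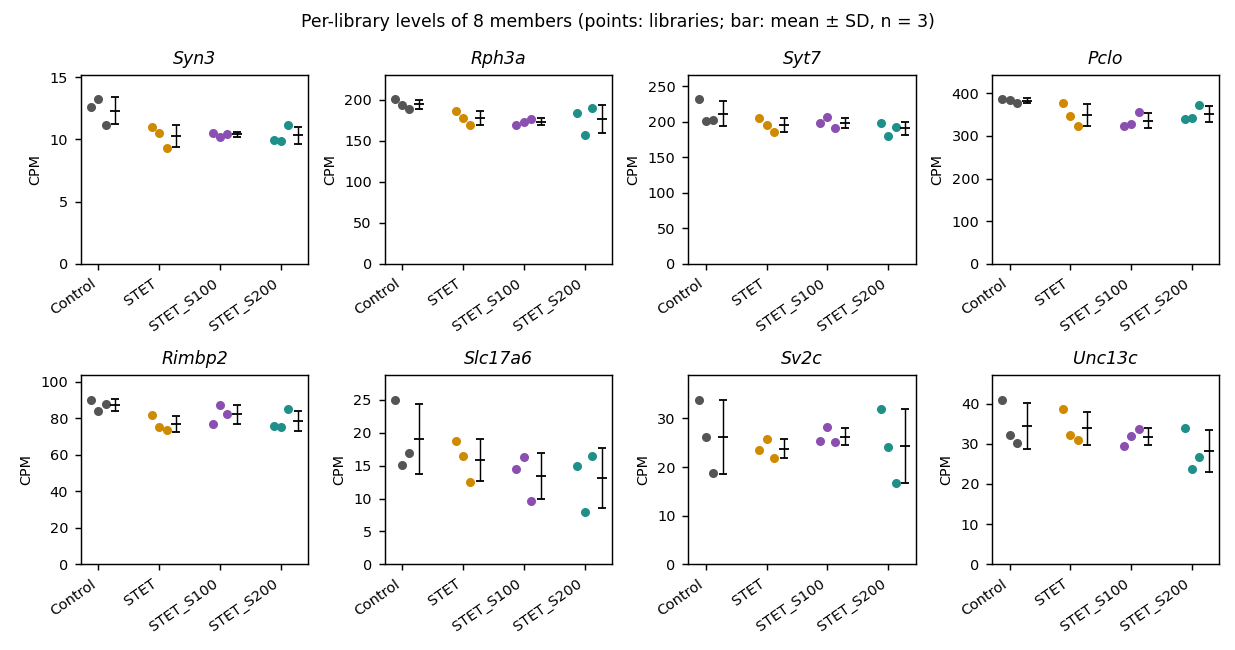
CPM in each library (points, in replicate order within a group) with the group mean and SD (bar, n = 3) for Syn3, Rph3a, Syt7, Pclo, Rimbp2, Slc17a6, Sv2c and Unc13c. In the Syn3 panel the 3 Control points, from 11.2 to 13.2 CPM, lie above all 9 others, while the Slc17a6, Sv2c and Unc13c panels show overlapping groups and a high point in Control 1.

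The core fusion machinery was the steadiest class by a small margin, with a median SD of log2 CPM of 0.0599 against 0.0633 for vesicle proteins and 0.0768 for the active zone. Snap25, the target-membrane SNARE, was at 1556, 1607 and 1603 CPM in Control, at 1610, 1596 and 1593 CPM in STET, at 1538, 1530 and 1707 CPM in STET_S100 and at 1616, 1670 and 1760 CPM in STET_S200. All 3 STET_S200 libraries lay above all Control libraries, which held for 1 of the 39 genes and for 5.73% of all genes. The log2 fold change of Snap25 in STET_S200 was 0.08 ± 0.04 (SE; unadjusted p = 0.081, edgeR), and 0.03 with only the 7 libraries with Fabp4 at or under 1 CPM, of which 1 is a STET_S200 library. In STET and STET_S100 it was 0.01 and 0.00. Vamp2 averaged 896 ± 10.4, 877 ± 28.4, 857 ± 35.7 and 896 ± 30.0 CPM in Control, STET, STET_S100 and STET_S200, and Vamp1, used by some interneurons and motor circuits, 86.1 ± 3.43, 87.0 ± 1.51, 88.3 ± 5.58 and 86.4 ± 4.93 CPM.

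Stx1a, which encodes the plasma membrane SNARE syntaxin 1A, varied most in this class, with an SD of log2 CPM of 0.11. It was at 92.6, 81.3 and 94.4 CPM in Control, at 92.6, 76.8 and 82.8 CPM in STET, at 81.1, 86.1 and 86.3 CPM in STET_S100 and at 83.9, 87.6 and 99.4 CPM in STET_S200. All groups overlapped with Control, and its log2 fold changes were −0.09 ± 0.08, −0.08 ± 0.08 and 0.01 ± 0.08 (SE). Napa, the gene of alpha-SNAP, varied least of all 39 genes, between 130 and 137 CPM (SD of log2 CPM 0.019). The 95% intervals of Napa against Control reached no farther than −0.06 and 0.09 in any of the 3 groups.

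The disassembly ATPase gene Nsf averaged 1150 ± 30.2, 1118 ± 22.0, 1144 ± 73.6 and 1187 ± 6.35 CPM, and the beta-SNAP gene Napb 573 ± 11.7, 565 ± 22.1, 574 ± 31.0 and 601 ± 26.7 CPM in Control, STET, STET_S100 and STET_S200. Cplx2 averaged 1314 ± 137, 1298 ± 69.0, 1342 ± 32.3 and 1335 ± 64.3 CPM, and the spread of its Control libraries was the widest of its 4 groups. Its paralogue Cplx1, the more common complexin of inhibitory neurons, averaged 415 ± 18.0, 408 ± 6.84, 425 ± 29.2 and 419 ± 17.7 CPM. The tomosyn gene Stxbp5 averaged 131 ± 3.59, 127 ± 2.54, 131 ± 3.35 and 134 ± 1.39 CPM. The median log2 fold change of the class was −0.02 in STET (7 of 10 negative), 0.00 in STET_S100 (3 of 10 negative) and 0.02 in STET_S200 (0 of 10 negative), with all 10 values in STET_S200 between 0.00 and 0.08.

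In the active zone, the 2 genes with the smallest p-values were Pclo and Rimbp2. Piccolo, the product of Pclo, is a giant scaffold that organizes vesicles with bassoon. Pclo (ENSMUSG00000061601) was at 386, 385 and 376 CPM in Control, at 376, 347 and 323 CPM in STET, at 323, 328 and 355 CPM in STET_S100 and at 340, 342 and 373 CPM in STET_S200. The Control libraries were the 3 highest apart from STET 1, which came within rounding of Control 3. Group means were 382 ± 5.42, 349 ± 26.4, 335 ± 17.4 and 352 ± 18.2 CPM (SD, n = 3 each), and log2 fold changes −0.13 ± 0.05, −0.19 ± 0.05 and −0.12 ± 0.05 (SE). In the mean of the 3 groups the value was −0.15 ± 0.04 (unadjusted p = 0.0035, adjusted p = 0.845 in edgeR's test), between −0.17 and −0.13 without any 1 library. In STET alone it was −0.08 without STET 3 (unadjusted p = 0.167, edgeR) and −0.09 in the 7 libraries with Fabp4 at or under 1 CPM (unadjusted p = 0.186, edgeR). The related scaffold gene Bsn averaged 596 ± 27.0, 573 ± 19.0, 585 ± 31.1 and 608 ± 19.4 CPM. In CPM per kb of exon, Bsn was 2.20 ± 0.0766 times Pclo in Control and 2.32 ± 0.136, 2.46 ± 0.0074 and 2.44 ± 0.145 times in the stimulated groups.

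Rimbp2 links RIM proteins to calcium channels. It was at 90.3, 83.8 and 87.9 CPM in Control, at 82.0, 75.1 and 73.4 CPM in STET, at 76.8, 87.3 and 82.4 CPM in STET_S100 and at 75.9, 75.2 and 84.8 CPM in STET_S200. All 3 STET libraries lay below all Control libraries, and 1 library of each amygdala group lay within the Control range. The log2 fold change was −0.19 ± 0.06 in STET, −0.09 ± 0.06 in STET_S100 and −0.15 ± 0.06 in STET_S200 (SE), with unadjusted p-values of 0.0054, 0.14 and 0.018 in edgeR's test. The difference of STET_S100 from STET was 0.10 ± 0.06 (unadjusted p = 0.11).

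The RIM proteins tether vesicles and calcium channels. Rims1 averaged 201 ± 6.01, 193 ± 4.72, 191 ± 10.1 and 201 ± 13.7 CPM and Rims2 92.1 ± 4.56, 89.97 ± 4.19, 88.2 ± 7.43 and 90.3 ± 5.07 CPM in Control, STET, STET_S100 and STET_S200. Rims3, which encodes a short member of the family, was at 86.7, 77.5 and 78.1 CPM in Control and at 81.2, 67.1 and 71.2 CPM in STET, with a log2 fold change of −0.14 ± 0.07 (SE). All 3 STET_S200 libraries, at 77.2, 72.4 and 76.2 CPM, lay just below Control, while STET_S100 reached 82.0 CPM. In the mean of the stimulated groups the log2 fold change of Rims3 was −0.10 and became −0.05 without Control 1.

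The Munc13 proteins prime vesicles for fusion, and Unc13a encodes the main form at hippocampal glutamate synapses. Unc13a averaged 346 ± 20.6, 353 ± 4.75, 347 ± 12.5 and 357 ± 5.21 CPM, and Unc13b 54.5 ± 3.71, 52.4 ± 2.51, 49.8 ± 5.32 and 52.3 ± 6.32 CPM. Unc13c, best known from the cerebellum, was the most variable active zone gene, with an SD of log2 CPM of 0.21. It was at 41.1, 32.3 and 30.3 CPM in Control, at 38.6, 32.1 and 31.0 CPM in STET, at 29.5, 32.1 and 33.7 CPM in STET_S100 and at 34.1, 23.8 and 26.8 CPM in STET_S200. Every group overlapped with Control. Its log2 fold change of −0.30 ± 0.16 (SE) in STET_S200 was −0.15 without Control 1 and −0.11 with only the 7 libraries with Fabp4 at or under 1 CPM.

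The remaining active zone genes overlapped with Control in every group. The steadiest of the class was Unc13a, with an SD of log2 CPM of 0.048. Erc2 (ELKS2), a scaffold that binds RIM, averaged 196 ± 14.1, 190 ± 3.53, 198 ± 4.41 and 204 ± 11.5 CPM, and Erc1 74.9 ± 7.16, 73.7 ± 0.889, 75.8 ± 2.94 and 75.8 ± 4.42 CPM. The liprin-alpha genes Ppfia2 and Ppfia3 averaged 144 ± 10.9 and 146 ± 5.67 CPM in Control, and their log2 fold changes against Control lay between −0.05 and 0.06. Of the exon bases, 22.3% of Ppfia2 are shared with Acss3 on the opposite strand, at 0.971 to 3.26 CPM, and 11.8% of Erc1 with the antisense gene Gm44317. The median log2 fold change of the class was −0.05 in STET (12 of 13 negative), −0.06 in STET_S100 (9 of 13) and −0.02 in STET_S200 (8 of 13).

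Over all 39 genes, most fold changes in STET were slightly negative. The median was −0.05, with 34 of 39 negative, against a median of 0.00 and 50.1% negative over all tested genes. In STET_S100 it was −0.03 (26 negative, all genes 49.2%) and in STET_S200 0.01 (16 negative, all genes 49.4%). Genes that moved together across libraries are not replicates, so these counts describe the list. The genes were long, with a median exon length of 7.64 kb against 3.71 kb over all tested genes, and in STET the median log2 fold change of all genes ran from 0.03 in the shortest of 10 equal length classes to −0.02 in the longest. After subtraction of the median of each gene's length class, the median of the 39 in STET was −0.03. The 7 pan-neuronal markers had medians of −0.02, −0.03 and 0.01 in the 3 comparisons. In 3 of the 39 genes the STET libraries all lay below Control (4.2% of all genes), in 3 those of STET_S100 (4.93%) and in 4 those of STET_S200 (5.28%). These were Syn3, Rph3a and Rimbp2, then Syn3, Rph3a and Pclo, then Syn3, Syt7, Rims3 and Pclo.

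The stimulated groups differed little from each other. Against STET, the median log2 fold change of the 39 genes was 0.02 in STET_S100 (15 negative, with 48.1% of all genes negative) and 0.04 in STET_S200 (7 negative, all genes 49.0%). At unadjusted p under 0.05 there were 0 genes in STET_S100 against STET, with 3.16% of all genes at that level, and 0 in STET_S200 against STET_S100, with 5.2%. In STET_S200 against STET there was 1, Slc17a7, which was higher, against 4.56% of all genes in either direction and 2.13% higher. Slc17a7 was at 1226, 1196 and 1234 CPM in STET and at 1282, 1287 and 1354 CPM in STET_S200, a log2 fold change of 0.10 ± 0.04 (SE; adjusted p = 0.938, edgeR). It was also the 1 gene whose STET_S200 libraries all lay above those of STET_S100, at 1218, 1262 and 1274 CPM (4.57% of all genes).

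The STET_S200 libraries all lay above the STET libraries in 7 of the 39 genes, against 6.22% of all genes. These were Syn2, Syt1, Slc17a7, Snap25, Stxbp5, Nsf and Erc2, with log2 fold changes of 0.09, 0.09, 0.10, 0.07, 0.07, 0.09 and 0.11. Among the 3 smallest p-values of their classes in this comparison were also Napb (0.09), Bsn (0.09) and Unc13c (−0.27). In the same comparison 6 of 6 astrocyte markers were lower (median −0.06), as were 5 of 5 of oligodendrocytes (−0.05), 6 of 6 of microglia (−0.13, 2 without overlap) and 5 of 5 of the choroid plexus (−5.38, 5 without overlap), while 5 of 7 pan-neuronal markers were higher (median 0.04). Microglial markers summed to 177 to 195 CPM in STET and to 157 to 186 CPM in STET_S200, and astrocyte markers to 6304 to 6724 and 5914 to 6970 CPM. Oligodendrocyte markers summed to 2608 to 3015 CPM in STET and to 2351 to 3148.5 CPM in STET_S200, so the groups overlapped. The part of these cell types in the result was not tested. With only the 7 libraries with Fabp4 at or under 1 CPM the median of the 39 genes in STET_S200 against STET was 0.00, with 1 library left in STET_S200. In STET_S100 against STET the smallest p-values per class belonged to Syt1 (0.04), Slc17a7 (0.04) and Slc17a6 (−0.24), to Cplx1 (0.06), Stxbp5 (0.04) and Vamp2 (−0.03), and to Ppfia2 (0.11), Rimbp2 (0.10) and Erc2 (0.07), all as log2 fold changes. In STET_S200 against STET_S100 they belonged to Syp (0.06), Slc17a7 (0.06) and Rab3a (0.07), to Snap25 (0.08), Vamp2 (0.06) and Napb (0.07), and to Rims1 (0.07), Pclo (0.07) and Bsn (0.05).

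Single libraries carried much of this pattern. In STET_S200 3, 32 of the 39 genes lay above their mean over the 12 libraries, with a median deviation of 0.08 on the log2 scale, and in STET_S100 3, 31 did, with a median of 0.04. In STET 3 only 3 of 39 lay above their mean and in STET_S100 1 only 6. The median deviations of the pan-neuronal markers were 0.03, 0.04, −0.03 and −0.04 in these 4 libraries, and those of the interneuron markers 0.15, 0.13, −0.02 and −0.03. The part of neuronal content in the result was not tested. Without STET_S200 3 the median of the 39 genes in STET_S200 against Control was −0.02, and without STET_S100 3 those of STET_S100 were −0.06 against Control and −0.02 against STET. Without STET_S200 3 the median was 0.02 in STET_S200 against STET and 0.01 against STET_S100.

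**Figure D4:**
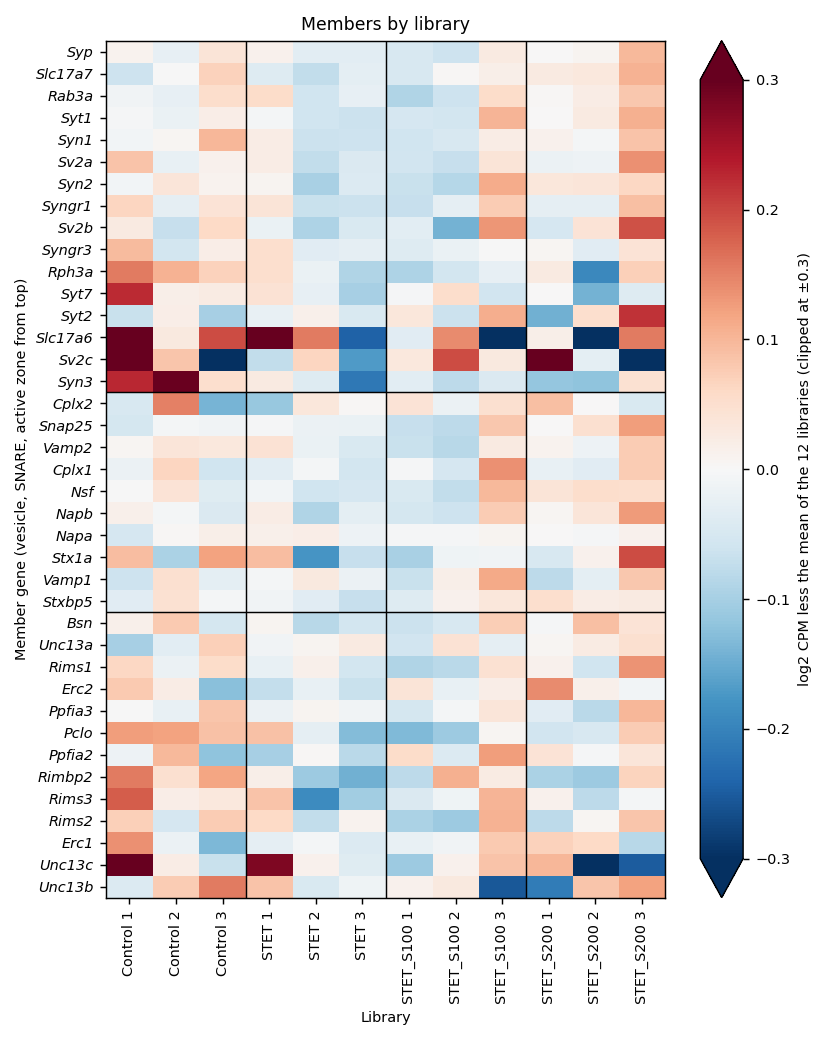
Log2 CPM of each of the 39 genes in each library less the gene's mean over the 12 libraries (colour, clipped at ±0.3), with genes ordered by class and level. STET_S200 3 and STET_S100 3 are mostly red (32 and 31 of 39 genes above the mean) and STET 3 mostly blue (3 above).

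The classes were compared within each library by their median deviations. The active zone median less the SNARE median was 0.10 in Control 1, −0.02 in Control 2 and 0.07 in Control 3, and between −0.03 and 0.02 in the 9 stimulated libraries. Control 2 thus lay within the range of the stimulated libraries. The vesicle median less the SNARE median was 0.07, −0.04 and 0.06 in the Control libraries and between −0.03 and 0.03 in the others. Variation over the 12 libraries was close to that of other abundant genes, or somewhat higher in the active zone. The median SD of log2 CPM was 0.0633 for vesicle proteins, 0.0599 for SNAREs and 0.0768 for the active zone. It was 0.0595 for the 6051 tested genes with a mean log2 CPM of at least 5, a level that 34 of the 39 genes reached. The highest library was under 1.2 times the lowest in 24 of the 39 genes and over 1.5 times in 3 (Slc17a6, Sv2c and Unc13c).

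**Figure D5:**
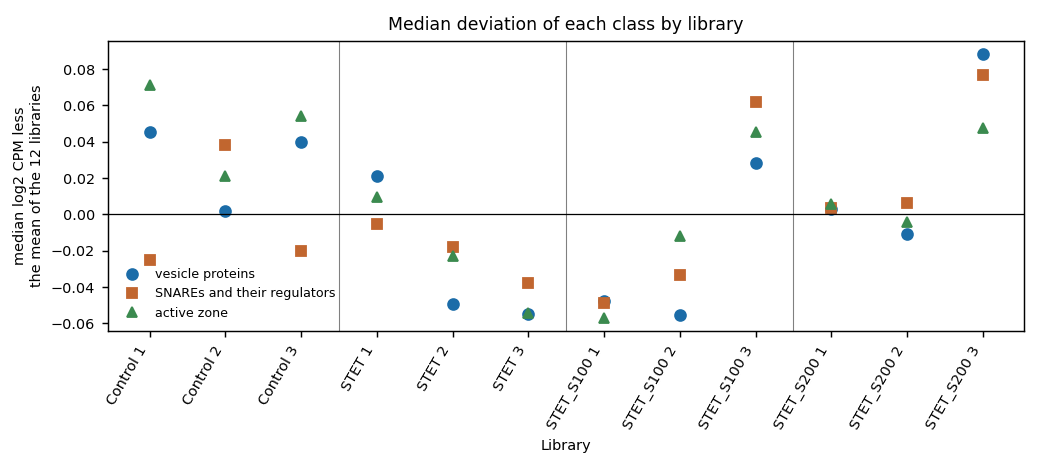
Median deviation of each class from its mean over the 12 libraries (log2 CPM), by library. In Control 1 and Control 3 the active zone and vesicle medians lie above the SNARE median, by up to 0.10, and in the 9 stimulated libraries the 3 classes lie close together.

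The rest of the presynaptic machinery was described from lists of genes with roles next to those above. Of 96 further genes in 4 lists (vesicle and transporter, SNARE, active zone and priming, and vesicle endocytosis genes), 94 were tested and 0 passed in any comparison with Control. Their median log2 fold change was −0.03 in STET (70 of 94 negative), −0.01 in STET_S100 (57 negative) and 0.01 in STET_S200 (42 negative). The vesicle endocytosis genes, which retrieve vesicle membrane after fusion, had medians of −0.03, −0.01 and 0.03. In the mean of the stimulated groups, genes with the smallest p-values in the lists were Syt6 (log2 fold change 0.20) and the vesicular GABA transporter gene Slc32a1 (0.08), the SNAP gene Napg (0.06), the liprin gene Ppfia4 (−0.10) and Git1 (−0.05), and the endocytic scaffold gene Itsn1 (−0.07) and the clathrin light chain gene Clta (0.04). All of these overlapped with Control.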

How the data were processed

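Poly(A) RNA of 12 pooled samples of ventral CA1 was sequenced from directional libraries with paired reads of 150 bp, per the labels' protocols. The deposited values are whole-number read counts per Ensembl gene ID without normalization. STAR 2.7.1a, HTSeq 0.11.2, Trimmomatic 0.39, limma and R 4.0.2 are listed in the submitters' processing notes. Build, annotation and the strand setting used in counting: not given in the sources used here. Symbols came from the gene name table and exon lengths from GENCODE M21, which held 55230 of the 55471 IDs. Total counts were 36.3 to 52.8 M. Reads are not independent molecules. Within groups, each pair of libraries differed beyond counting noise (chi-square over degrees of freedom 5.21 to 21.5).

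Counts were TMM-normalized (trimmed mean of M values), filtered with filterByExpr (minimum count 10, minimum total 15) and tested with edgeR 4.0.16 (robust quasi-likelihood F test, R 4.3.3) in 1 fit of 4 groups, with Benjamini-Hochberg adjustment over all tested genes and a threshold of 0.05. Adjusted p-values and the unadjusted ones beside them come from this fit, and 95% intervals from its SE. Log2 CPM used a prior count of 0.5, and levels per kb the union of a gene's exons. Alternatives were DESeq2 1.42.0, limma-voom (limma 3.58.1), other scalings (RLE and upper quartile), other filters, no robust dispersion, a threshold of 0.1, a length correction, a term for Fabp4 over 1 CPM, the 7 libraries at or under it, the replicate number as a block, and leaving out each library.

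The genes, classes, marker lists and the 4 wider presynaptic lists were chosen with earlier results of these data known, as were the settings on Fabp4. The genes named are, in each comparison, the 3 with the smallest p per class, those with the highest and lowest level and spread per class, 2 per wider list, the 3 that follow the most variable gene most closely, and Arc and Npas4. Other members are given to account for all 39. A marker gene and a gene of the wider lists are not reported here.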

Additional observations from a re-analysis of the deposited data

How the results depend on the processing

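None of the 39 genes passed under any of the 23 alternative settings in any of the 8 comparisons. The number of genes that passed over the whole table, 0 in each comparison, did depend on the settings. In the order STET, STET_S100 and STET_S200 against Control, STET_S100 and STET_S200 against STET, STET_S200 against STET_S100, stimulated mean against Control and any difference, it was 16, 42, 69, 22, 34, 98, 52 and 192 with no filter on low counts, and 1, 3, 4, 1, 16, 5, 7 and 12 with DESeq2. With a term for Fabp4 over 1 CPM it was 2 in STET and 1 in STET_S200 against Control, 1 in STET_S100 and 1 in STET_S200 against STET, 4 in the stimulated mean and 1 for any difference, and with the 7 libraries alone it was 4 in the stimulated mean. The cause was not tested. Without 1 library it ranged from 0 to 1 in STET_S100 against STET, STET_S100 against Control, the stimulated mean and any difference, from 0 to 2 in STET_S200 against Control and from 0 to 8 in STET_S200 against STET_S100, the last without STET_S100 3.

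The median log2 fold change of the 39 genes moved by less than 0.031, the SD between libraries of a group, under most settings. Several of the medians are smaller than this SD, so a change of sign can fall within it. With the 7 libraries alone, of which 1 is a STET_S200 library, the median in STET_S200 against Control was −0.017, against 0.011 with all 12 libraries. It was 0.0031 in STET_S200 against STET and −0.0028 in STET_S200 against STET_S100. Leaving out 1 library gave −0.064 to −0.0043 in STET_S100 against Control, −0.017 to 0.040 in STET_S100 against STET and −0.024 to 0.021 in STET_S200 against Control, with the lowest values without STET_S100 3, STET_S100 3 and STET_S200 3. Of 1449 values of the genes with the 3 smallest p-values per class and comparison, 1442 kept their direction and 7 changed sign. With the 7 libraries alone these were Napb in STET_S200 against Control (−0.00044) and Snap25 (−0.0028), Napb (−0.0044), Pclo (−0.0075) and Bsn (−0.017) in STET_S200 against STET_S100, and without STET_S100 3 they were Vamp1 in STET_S100 against Control (−0.011, up to 0.082 without another library) and Syt1 in STET_S100 against STET (−0.0090, up to 0.071).

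Whether libraries with equal replicate numbers are paired was not settled. The correlations of their deviations ran from −0.368 to 0.481, and 8 of 18 were over 0.1. Between libraries with other numbers they ran from −0.603 to 0.506, and 9 of 36 were over 0.1. By the count used, 0 libraries correlated best with their own number. These ranges overlap, so the correlations cannot decide whether equal numbers share mice. With the replicate block 0 genes passed in each comparison, and the median of the 39 genes was −0.046 in STET, −0.028 in STET_S100 and 0.010 in STET_S200 against Control. With a median SE of 0.049 on the log2 scale, changes of a few percent in these genes were not detectable with 3 libraries a group. Larger changes could also go uncalled after adjustment over all genes. Arc, at a log2 fold change of 1.38 in the stimulated mean against Control, had an adjusted p of 0.845 in edgeR's test.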
